A study of Mus musculus with 2 samples.

Results

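The genes described here are 36 mouse genes of peroxide, superoxide and glutathione chemistry, chosen by symbol from the 32285 genes counted in both libraries, and all 36 were found. They comprise 6 peroxiredoxins and sulfiredoxin (Srxn1), 2 glutathione peroxidases, 4 genes of glutathione synthesis and recycling, 6 thioredoxin and glutaredoxin genes, 7 glutathione transferases, 3 genes of superoxide dismutases and catalase, 3 of quinone and haem reduction or breakdown, 2 of NADPH supply, and the regulators Nfe2l2 and Keap1. They were measured in haematopoietic stem cells (HSCs) of wild-type C57Bl6 mice, 8 weeks of age by the series title, sorted from bone marrow within the LSK gate, which takes lineage-negative cells bearing Sca-1 and Kit. ST-HSCs (short-term) were gated as CD34-, CD150+ and CD48+, and LT-HSCs (long-term) as CD34-, CD150+, CD48- and Flk2-. Each group is 1 droplet library made with the 10x Genomics 3' kit, in which each captured RNA molecule carries a unique molecular identifier (UMI), and how many mice were pooled is not given in the sources used here.

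HSCs are known for low levels of reactive oxygen species, and a rise in these species is tied to loss of quiescence. Peroxiredoxins and glutathione peroxidases reduce peroxides, and are themselves recharged by thioredoxin or by glutathione, whose reducing power comes from NADPH. Glutathione transferases join glutathione to reactive compounds. Many of these genes are textbook targets of NRF2, the protein of Nfe2l2, which KEAP1 holds at a low level and which binds antioxidant response elements together with small MAF proteins. Erythroid cells are known for a strong supply of peroxiredoxin, catalase and glutathione enzymes, since haemoglobin and iron give rise to oxidants.

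The library labelled ST-HSC gave 6648 kept cells of 7586 barcodes (median depth 13402 UMIs), and that labelled LT-HSC gave 2722 of 2938 (median depth 17595 UMIs). Totals over kept cells were 111783180 and 64673871 UMIs, and 6 kept barcode sequences occurred in both libraries. The RNA of 2 genes of the sort went against the labelled gate. Slamf1, which encodes CD150, was at 1.26 CPM (UMIs scaled to a fixed library total) in the library labelled ST-HSC and 26.6 CPM in that labelled LT-HSC, and Cd34 was at 242 and 29.2 CPM in the same order of libraries, although both gates ask for CD150 and for no CD34. Cd48 was at 74.7 CPM in ST-HSC and 35.3 CPM in LT-HSC. Cells were also placed in ranges of 1 gene, which are not cell types: Car1-high (carbonic anhydrase, at least 50 UMIs per 10000), Pf4-high (platelet factor 4, at least 10), Dntt-positive (terminal transferase, at least 2) and Hlf-high (a stem cell transcription factor, at least 3), leaving out cells that met more than 1 of these (533 in ST-HSC, 8 in LT-HSC). The ST-HSC library held 42 Car1-high, 4 Pf4-high, 677 Dntt-positive and 3285 Hlf-high cells, and the LT-HSC library 458, 246, 1 and 774. Near their edge, which for Car1 means 40 to 62.5 UMIs per 10000, lay 90, 10, 274 and 731 cells of ST-HSC and 197, 38, 0 and 253 cells of LT-HSC. A list of 8 erythroid markers that includes Car1 summed to 9109 CPM in Car1-high LT-HSC cells against 108 CPM in Hlf-high LT-HSC cells, and 8 megakaryocyte markers that include Pf4 summed to 7058 CPM in Pf4-high cells against 322 CPM in the same Hlf-high cells. In ST-HSC, 8 lymphoid progenitor markers that include Dntt summed to 2614 CPM in Dntt-positive and 509 CPM in Hlf-high cells, and 8 HSC markers that include Hlf to 1448 CPM and 3548 CPM. Each sum holds the gene that set the range, so part of it was fixed in advance and it is no test of the range. In LT-HSC the median was 76.1 Car1 UMIs per 10000 in Car1-high cells and 37.9 Pf4 UMIs per 10000 in Pf4-high cells. The median Hlf level was 0 in Car1-high and Pf4-high LT-HSC cells, and the median Car1 and Pf4 levels were 0 in Hlf-high cells of both libraries.

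The core of the antioxidant response element, TGACNNNGC on either strand, was searched in the promoters (250 bases before to 50 after each start) of the RefSeq promoter table, build GRCm38.p6 (mm10). It occurred in 10 of the 32 genes with an entry (31.2%) and in 3781 of 27025 genes of the table (14%). The match overlaps the AP-1 motif TGANTCA where the free bases are TCA, as they are in Prdx1. The matches of 7 genes whose levels are followed below are printed 5′ to 3′ along each gene, with the match in capitals, which read as the reverse complement of the motif in all but Gstm5. The stretches shown for Gstm5, Mgst1 and G6pdx overlap an annotated exon, in the match or in its flanks, and were given shorter flanks. A match is a stretch of letters, not a shown binding site.
Gclm (chr3:122245397-122245457, plus strand): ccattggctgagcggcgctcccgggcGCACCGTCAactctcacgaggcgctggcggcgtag
Prdx1 (chr4:116685440-116685500, plus strand): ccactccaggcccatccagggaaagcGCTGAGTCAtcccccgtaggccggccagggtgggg
Txnrd1 (chr10:82859088-82859148, plus strand): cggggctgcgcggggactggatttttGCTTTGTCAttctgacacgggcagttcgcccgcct
Sod1 (chr16:90220680-90220740, plus strand): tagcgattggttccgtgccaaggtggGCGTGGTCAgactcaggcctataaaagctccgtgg
Gstm5 (chr3:107895802-107895830, plus strand): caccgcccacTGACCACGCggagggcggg
Mgst1 (chr6:138140461-138140489, plus strand): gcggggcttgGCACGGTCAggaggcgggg
G6pdx (chrX:74428919-74428947, minus strand): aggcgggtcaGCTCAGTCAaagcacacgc
The first base of the match lay 134 bases upstream of the start in Gclm, 133 in Prdx1, 92 in Txnrd1, 56 in Sod1, 42 in Gstm5, 56 in Mgst1 and 57 in G6pdx. Nfe2l2, Pgd and Srxn1 also held a match.

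Over all kept cells, more antioxidant genes were lower than higher in the ST-HSC library against the LT-HSC library, and 18 passed neither limit. Of 34 genes tested (a mean of at least 5 CPM over both sides), 13 were lower by 1.5-fold or more, against 10.3% of 10412 genes, and 3 were higher, against 24.9%. The members' median log2 ratio was -0.42, beside 0.12 for all genes tested. With 1 library per group no test is possible, a call is by size alone, and the exact conditional binomial 95% intervals given with folds cover counting error only. Scaling by TMM or by the median of ratios moved the median of all genes by -0.13 and -0.15, which gave 2 higher and 16 or 17 lower members, and brought the share of higher genes among all called genes from 70.7% to 54.2% and 52.4%. Of 10412 genes, 2003 and 1944 were then higher and 1691 and 1765 lower, in that order.

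The lower genes spanned several roles. Prdx6, a peroxiredoxin that also acts on phospholipids, was at 308 CPM in ST-HSC and 731 CPM in LT-HSC, 2.37-fold lower (2.34 to 2.40). Gclm, the modifier subunit of glutamate-cysteine ligase, stood at 129 CPM in ST-HSC against 263 CPM in LT-HSC, 2.04-fold lower (1.99 to 2.08), whereas Gclc, the catalytic subunit of the same enzyme, was at 52.1 CPM in ST-HSC and 44.4 CPM in LT-HSC, a ratio of 1.17 (1.12 to 1.23) that passed no limit. Nqo1, a quinone reductase often used as a readout of NRF2, had 5.12 CPM in ST-HSC and 15.0 CPM in LT-HSC, 2.92-fold lower (2.63 to 3.25). Among the transferases, Gstp1 was at 30.8 CPM in ST-HSC and 88.6 CPM in LT-HSC and Gstt1 at 3.41 and 10.7 CPM in the same order, while Gstm1 (58.7 CPM in ST-HSC, 32.2 CPM in LT-HSC) and the microsomal Mgst1 (24.3 CPM in ST-HSC, 10.7 CPM in LT-HSC) were higher by 1.82-fold (1.73 to 1.92) and 2.27-fold (2.09 to 2.48). By library totals the transferases therefore divided into 5 lower and 2 higher genes, but Gstm1 was not called higher with a mean over cells or without cycling cells. The third higher gene was Txnrd1, the cytosolic thioredoxin reductase, at 94.3 CPM in ST-HSC and 60.9 CPM in LT-HSC, which passed 1.5-fold by library totals but not under TMM or the median of ratios. Mgst1 kept its call under both scalings, with a mean over cells and without cycling cells. Prdx1, Prdx3, Gpx1, Gpx4, the mitochondrial superoxide dismutase Sod2, Gsto1, Gstm5 and Mgst3 made up the other lower genes, at 1.53-fold to 2.33-fold. Hmox1 (4.41 CPM in ST-HSC, 2.78 CPM in LT-HSC) and Srxn1 (4.94 and 4.22 CPM) were under the expression limit.

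These library totals mixed ranges of cells in different shares. Car1-high cells were 0.632% of kept cells in ST-HSC and 16.8% in LT-HSC, and Pf4-high cells 0.0602% in ST-HSC and 9.04% in LT-HSC. Car1-high cells held 30.35% of all UMIs of the LT-HSC library. They carried 48.3% of its UMIs of Gclm, 47.8% of those of Prdx6 and 50.1% of those of Nqo1, but 1.59% of those of Mgst1 and 6.48% of those of Gstm1. Without every cell past the Car1 or Pf4 edge, an alternative added after seeing the data, 7 of 35 members tested were lower (Prdx1, Prdx6, Gclm, Nqo1, Gstm5, Gstp1 and Gstt1, each also lower over all kept cells) and the higher ones were G6pdx and Pgd. Of 10575 genes, 1024 were then lower and 1803 higher. The log2 ratio of Gstm1 was then 0.29, that of Mgst1 0.50 and that of Txnrd1 0.47, each under the 1.5-fold limit.

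Within Hlf-high cells, where 36 of 36 genes passed the expression limit, the ST-HSC library still had lower levels of 8 members, against 13% of 10734 genes lower, and a higher level of 1, against 15.9% higher. The members' median log2 ratio was -0.31, beside 0.0029 for all genes, and 29 of the 36 were below 0. Gstt1, a theta-class transferase, showed the largest difference among the 36, at 5.31 CPM in Hlf-high ST-HSC cells (Poisson interval 4.69 to 5.99) and 21.1 CPM in Hlf-high LT-HSC cells (18.5 to 23.9), 3.97-fold lower (3.31 to 4.75). Gstm5 was at 27.3 CPM in ST-HSC and 56.2 CPM in LT-HSC, 2.06-fold lower (1.87 to 2.26), and Gstp1 at 25.1 CPM in ST-HSC and 50.6 CPM in LT-HSC, 2.02-fold lower (1.83 to 2.23). Of the 7 transferases 4 were therefore lower, the last being Mgst3 at 17.1 CPM in ST-HSC and 29.1 CPM in LT-HSC.

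Gstm1 and Mgst1, the transferases that were higher in ST-HSC over all kept cells, were not higher there within the Hlf range. Gstm1 was at 67.9 CPM in Hlf-high ST-HSC cells and 91.9 CPM in Hlf-high LT-HSC cells, and Mgst1 at 31.9 CPM in ST-HSC and 36.9 CPM in LT-HSC, with log2 ratios of -0.44 and -0.21. Among peroxide-reducing genes, Prdx6 was at 277 CPM in ST-HSC and 462 CPM in LT-HSC, 1.67-fold lower (1.61 to 1.72), and Prdx5, which works in mitochondria and peroxisomes, at 136 CPM in ST-HSC and 205 CPM in LT-HSC, 1.505-fold lower (1.44 to 1.58). Nqo1, at 4.64 CPM in ST-HSC and 7.46 CPM in LT-HSC, and Glrx, a glutaredoxin, at 46.5 CPM in ST-HSC and 71.2 CPM in LT-HSC, completed the lower genes. Prdx5 and Glrx were not called under TMM or the median of ratios, which left 6 lower members, beside 1123 and 1119 of 10734 genes. Nqo1 was not called with a mean over cells or at stricter edges. The same 6 genes were lower in both library comparisons, namely Prdx6, Nqo1, Gstm5, Gstp1, Gstt1 and Mgst3, and the comparisons share the Hlf-high cells. How many of all genes were lower in both is not given here, so this overlap is not read as a result about the members.

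The higher gene was G6pdx, the entry enzyme of the pentose phosphate pathway and a main source of NADPH, at 18.1 CPM in Hlf-high ST-HSC cells and 11.3 CPM in Hlf-high LT-HSC cells, a ratio of 1.60 (1.33 to 1.94), although it was not called with a mean over cells. Pgd, the next NADPH-producing step of that pathway, was at 35.7 CPM in ST-HSC and 26.5 CPM in LT-HSC, and Txnrd1 at 107 CPM in ST-HSC and 73.1 CPM in LT-HSC, ratios of 1.35 and 1.46, under the limit by library totals. Txnrd1 was called higher under TMM, under the median of ratios, with a mean over cells and at stricter edges. Gclm, called over all kept cells, was at 99.2 CPM in ST-HSC and 119 CPM in LT-HSC, 1.20-fold lower (1.13 to 1.28). Catalase (Cat) and Gsr, which regenerates reduced glutathione, had log2 ratios of -0.02 and -0.03, with intervals of the fold that include 1. S phase and G2/M phase genes moved with this comparison: cells with at least 1% of thinned UMIs from those lists were 24.5% of Hlf-high cells in ST-HSC and 3.96% in LT-HSC, and 31 of 42 S phase genes were higher in ST-HSC. Without such cells 9 of 36 members were lower, among them the same 8, beside 1285 of 10670 genes. G6pdx was again the higher one, beside 1568 genes. Marker lists also differed between the libraries within the Hlf range. Lymphoid progenitor markers summed to 509 CPM in Hlf-high ST-HSC cells and 34.0 CPM in Hlf-high LT-HSC cells (where Il7r was at 0), megakaryocyte markers to 102 CPM in ST-HSC and 322 CPM in LT-HSC, and erythroid markers to 49.6 CPM in ST-HSC and 108 CPM in LT-HSC. The lymphoid list includes Flt3, which encodes Flk2, and the LT-HSC gate excludes Flk2. Over all kept cells Flt3 was at 291 CPM in ST-HSC and 5.5 CPM in LT-HSC. The median mitochondrial share was 3.55% of UMIs in ST-HSC and 1.88% in LT-HSC, and the part of these in the differences was not tested.

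**Figure D1:**
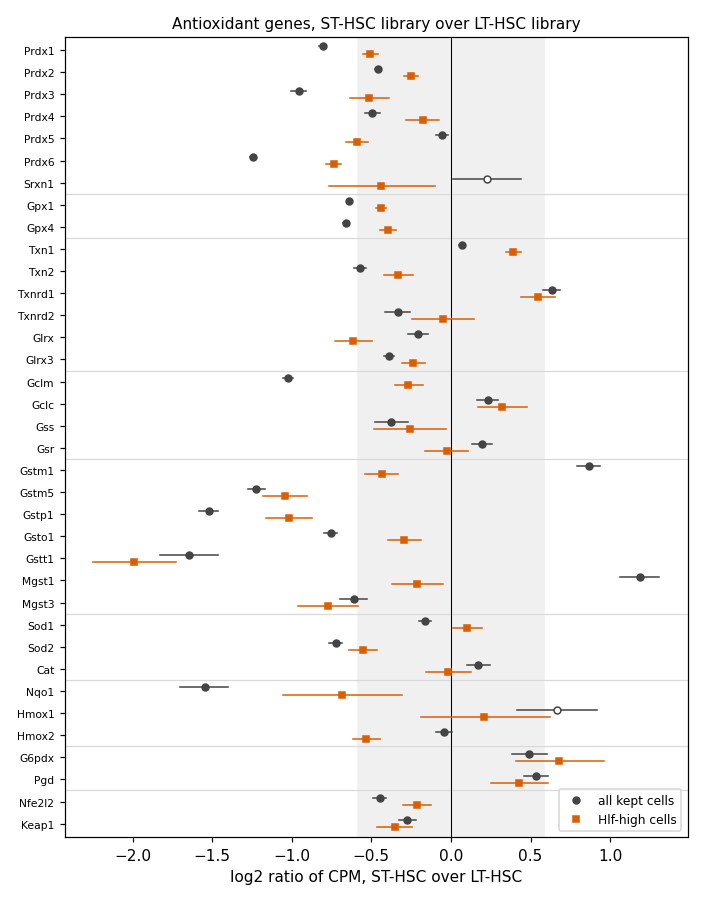
The log2 ratio of CPM, ST-HSC over LT-HSC, is plotted for each of the 36 genes over all kept cells (grey circles) and within Hlf-high cells (orange squares), with 95% counting intervals as lines, the range within 1.5-fold shaded and genes under the expression limit as open symbols. Gstm1 and Mgst1 lie right of the shaded range over all kept cells (0.87 and 1.19) and left of 0 within Hlf-high cells (-0.44 and -0.21).

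Of the ranges compared at the main edges, Car1-high cells of the LT-HSC library had the most called members against Hlf-high cells of that library. They also had the largest shares of all genes called, both higher and lower, so the number of calls is not particular to the members. Of 35 genes tested 17 were higher, against 17.5% of 10265 genes, and 8 were lower, against 45.1%. The members' median log2 ratio was 0.58, beside -0.44 for all genes tested. TMM and the median of ratios moved the median of all genes by 0.65 and 0.73, gave 25 higher and 5 lower members under each, and brought the share of higher genes among all called genes from 27.9% to 58.1% and 61.6%. Of 10265 genes, 3761 and 4075 were then higher and 2710 and 2536 lower, in that order. Log2 ratios relative to the median of all genes are therefore given for several of the higher genes.

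Of 7 peroxiredoxin and sulfiredoxin genes 4 were higher and 2 (Prdx5 and Srxn1) lower, both glutathione peroxidases were higher, and of 4 genes of glutathione synthesis and recycling 1, Gclm, was higher. Gclm was at 419 CPM in Car1-high cells (Poisson interval 410 to 428) and 119 CPM in Hlf-high cells (113 to 126), a ratio of 3.51 (3.31 to 3.72), and lay 2.25 log2 units above the median of all genes. Gclc was at 55.4 CPM in Car1-high cells and 37.1 CPM in Hlf-high cells, a ratio of 1.49 (1.33 to 1.68), just under the limit. Both subunits of the ligase were thus above their Hlf-high level, with the modifier subunit further above it. Prdx3, the mitochondrial peroxiredoxin, stood at 181 CPM in Car1-high cells and 65.5 CPM in Hlf-high cells, Prdx6 at 1151 and 462 CPM, and Prdx2, an abundant protein of red cells, at 934 and 431 CPM, ratios of 2.77, 2.49 and 2.17 of Car1-high over Hlf-high cells. Relative to the median of all genes these 3 lay 1.91, 1.75 and 1.55 log2 units higher. Gpx1, the main cytosolic glutathione peroxidase, was at 1618 CPM in Car1-high cells and 902 CPM in Hlf-high cells, and Gpx4, which reduces lipid peroxides, at 644 and 384 CPM. Nqo1 was at 24.7 CPM (22.6 to 27.0) in Car1-high cells and 7.46 CPM (5.95 to 9.24) in Hlf-high cells, a ratio of 3.31 (2.62 to 4.22), or 2.16 log2 units above the median of all genes.

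Mitochondrial members were among the higher genes as well. Txn2 and Txnrd2, the mitochondrial thioredoxin and its reductase, were at 227 and 46.9 CPM in Car1-high cells and at 113 and 23.5 CPM in Hlf-high cells, ratios of 2.02 and 1.99, and Sod2 had 209 CPM in Car1-high cells and 118 CPM in Hlf-high cells. The cytosolic Txnrd1 lay in the other direction, at 42.4 CPM in Car1-high cells and 73.1 CPM in Hlf-high cells, 1.73-fold lower (1.56 to 1.90), with a log2 ratio that shrank from -0.79 to -0.14 under TMM and -0.05 under the median of ratios. Prdx5 (94.8 CPM in Car1-high cells, 205 CPM in Hlf-high cells) and Glrx (44.1 and 71.2 CPM) were lower by library totals but not by 1.5-fold under either scaling, and for Glrx the median of ratios turned the log2 ratio of -0.69 to 0.04. The regulator Nfe2l2 was at 176 CPM in Car1-high cells and 116 CPM in Hlf-high cells, a ratio of 1.51 (1.42 to 1.61) that was not called with a mean over cells or at stricter edges, and Keap1 at 69.0 CPM in Car1-high cells and 78.0 CPM in Hlf-high cells.

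The transferases split within this comparison. Gstm5 was at 174 CPM in Car1-high cells and 56.2 CPM in Hlf-high cells, a ratio of 3.10 (2.84 to 3.38) and 2.07 log2 units above the median of all genes, and Gstp1 and Gsto1 were also higher, by 2.65-fold and 2.17-fold. Mgst1 was at 0.560 CPM (Poisson interval 0.280 to 1.003, from 11 UMIs) in Car1-high cells and 36.9 CPM (33.4 to 40.6, from 415 UMIs) in Hlf-high cells, 65.8-fold lower (36.4 to 133). After each cell was thinned to 5000 UMIs, 0 of 456 Car1-high cells had a UMI of Mgst1, against 16.4% of Hlf-high cells. The count of 0 allows up to 0.658% of cells with a UMI at that depth and does not limit how many cells express the gene. The unthinned shares, which depend on depth, were 1.75% of Car1-high and 37.3% of Hlf-high cells, at median depths of 39551.5 and 12125.5 UMIs. Gstm1 was at 6.88 CPM in Car1-high cells and 91.9 CPM in Hlf-high cells, 13.4-fold lower (11.2 to 16.1), and Gstt1 at 1.53 CPM in Car1-high cells and 21.1 CPM in Hlf-high cells, 13.8-fold lower (9.40 to 20.9). These 3 transferases, Hmox2, the constitutive haem oxygenase (52.8 CPM in Car1-high cells, 136 CPM in Hlf-high cells), and Srxn1, which repairs overoxidised peroxiredoxins (1.99 and 8.88 CPM), were lower under both other scalings too, and at stricter edges Srxn1 was under the expression limit. Mgst1, Gstt1 and Srxn1 passed that limit through their Hlf-high level alone, so by library totals they could only be called lower. The genes tested stayed the same under the other scalings. Gstm1 and Gstm5 lie near each other on chromosome 3 in a family of similar sequences, as Gstp1 does with Gstp2, and how reads shared between such genes were assigned is not given in the sources used here.

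Cells with at least 1% of thinned UMIs from S phase and G2/M phase genes were 65.1% of Car1-high cells and 3.96% of Hlf-high cells in LT-HSC. Without them, 16 of the 17 higher members and the 8 lower ones were called again, beside 1666 higher and 4534 lower of 10249 genes. G6pdx was the member not called. It was not called with a mean over cells either, and Prdx1 and Txn1 were not at looser edges.

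**Figure D2:**
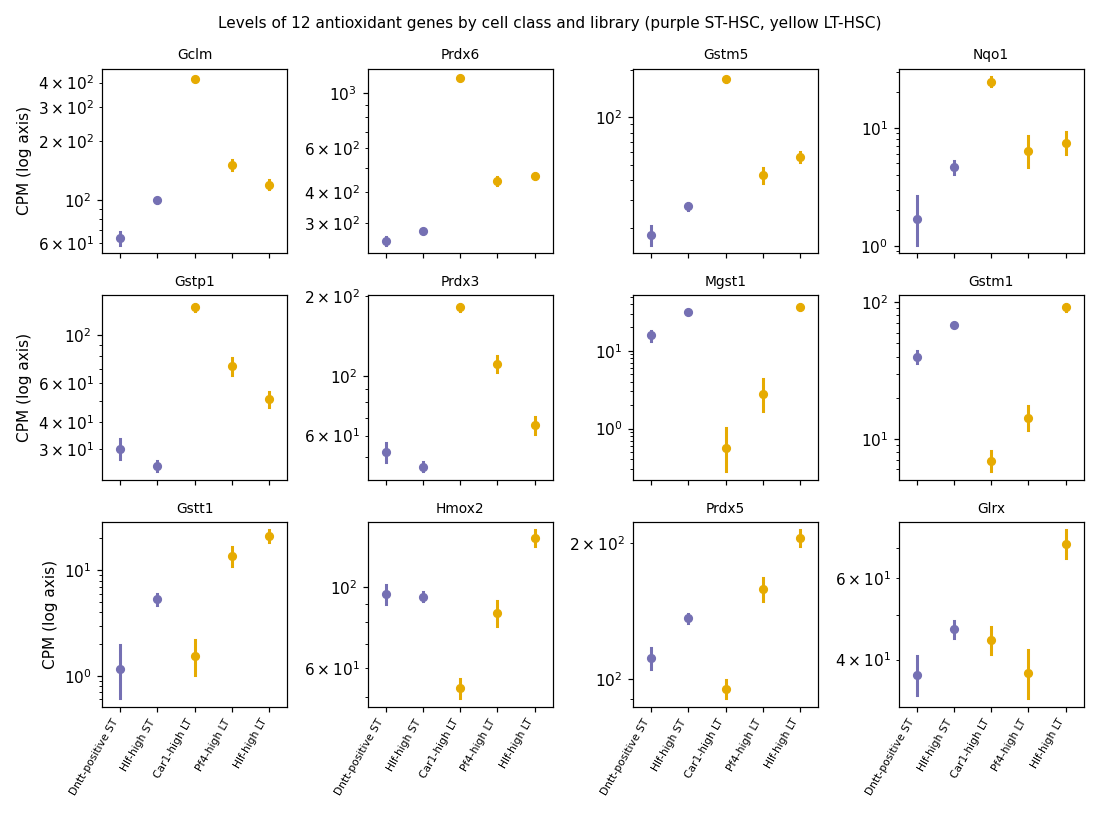
CPM on log axes, with 95% Poisson intervals as bars, is drawn for 12 genes in Dntt-positive and Hlf-high cells of ST-HSC (purple) and Car1-high, Pf4-high and Hlf-high cells of LT-HSC (yellow), each panel on its own scale. Gclm, Prdx6, Gstm5, Nqo1, Gstp1 and Prdx3 have their highest point in Car1-high cells, and Mgst1, Gstm1 and Gstt1 in Hlf-high LT-HSC cells.

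The ST-HSC library had 42 Car1-high cells, under the minimum of 50 for a comparison. At looser edges (Car1 at least 20 and Hlf at least 2 UMIs per 10000) 255 Car1-high and 3298 Hlf-high ST-HSC cells were compared. There 18 of 33 members tested were higher, against 19.9% of 10184 genes, and 6 were lower, against 38.4%, with a median log2 ratio of 0.65 beside -0.24 for all genes. Gclm was at 432 CPM in Car1-high and 99.1 CPM in Hlf-high ST-HSC cells, Gstm5 at 216 and 26.6 CPM, and Nqo1 at 16.7 and 4.72 CPM, ratios of 4.36, 8.09 and 3.54 of Car1-high over Hlf-high cells. Mgst1 was at 1.24 CPM in Car1-high cells and 30.6 CPM in Hlf-high cells, 24.7-fold lower (14.1 to 47.9), and Gstm1 at 5.78 and 67.5 CPM, 11.7-fold lower (8.96 to 15.5). The direction of each of these 5 genes was thus that of the LT-HSC library. In this library Mgst3, called between in LT-HSC, was at 65.4 CPM in Car1-high cells and 16.7 CPM in Hlf-high cells, a ratio of 3.91 (3.52 to 4.34).

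Car1-high cells of the libraries, 255 of ST-HSC and 732 of LT-HSC at the looser edges, were also set against each other. Of 32 members tested 5 were higher in ST-HSC, against 16% of 9041 genes, and 6 lower, against 11.3%, with a median log2 ratio of 0.02 beside 0.08 for all genes. Gclc was the highest of these, at 115 CPM in ST-HSC and 54.6 CPM in LT-HSC, a ratio of 2.10 (1.95 to 2.27), while Gclm was at 432 CPM in ST-HSC and 403 CPM in LT-HSC. The others higher were Txnrd2, Mgst3, G6pdx and Pgd. The lower members were Prdx1, Prdx6, Gstp1, Gsto1, Hmox2 and Glrx, and Prdx6 among them was at 617 CPM in ST-HSC and 1057 CPM in LT-HSC, 1.71-fold lower (1.67 to 1.76). In ST-HSC 11 of 42 S phase genes were higher and 1 lower, and 10 of 52 G2/M phase genes higher and 0 lower. At the main edge, cells with at least 1% of thinned UMIs from cycle genes were 80.95% of Car1-high cells in ST-HSC and 65.1% in LT-HSC. Their median Car1 levels were 57.8 and 76.1 UMIs per 10000. The part of these in the differences was not tested.

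Pf4-high cells of LT-HSC stood closer to Hlf-high cells, with fewer calls among the members and among all genes. Of 35 members tested 4 were higher, against 13.4% of 10467 genes, and 7 lower, against 28.9%, with a median log2 ratio of -0.05 beside -0.19 for all genes. TMM and the median of ratios moved the median of all genes by 0.25 and 0.28, gave 9 or 11 higher and 5 lower members, and brought the share of higher genes among all called genes from 31.6% to 52.2% and 54.8%, so the members' median of -0.05 became 0.20 and 0.23. Of 10467 genes, 2276 and 2417 were then higher and 2084 and 1995 lower, in that order. The higher genes were Prdx1 (670 CPM in Pf4-high cells, 406 CPM in Hlf-high cells), Prdx3, Gpx4 and the cytosolic thioredoxin Txn1 (617 and 366 CPM), with ratios of 1.65 to 1.70. Mgst1 was again among the lower genes, at 2.79 CPM (1.70 to 4.30) in Pf4-high cells and 36.9 CPM in Hlf-high cells, 13.2-fold lower (8.46 to 21.9), as was Gstm1 at 14.2 CPM in Pf4-high cells and 91.9 CPM in Hlf-high cells, 6.47-fold lower (5.27 to 8.01). Gstt1 was closer, at 13.5 CPM in Pf4-high cells against 21.1 CPM in Hlf-high cells, 1.56-fold lower (1.23 to 1.995), and neither it nor Hmox2 passed 1.5-fold under TMM or the median of ratios. Cat, the peroxisomal enzyme that splits hydrogen peroxide, was at 20.8 CPM in Pf4-high cells and 44.8 CPM in Hlf-high cells, 2.16-fold lower (1.79 to 2.61), whereas in Car1-high cells it was at 36.6 CPM, between the limits. Gclm, Prdx6 and Nqo1, each higher in Car1-high cells, were at 151, 443 and 6.41 CPM in Pf4-high cells and 119, 462 and 7.46 CPM in Hlf-high cells, within 1.5-fold by library totals, although Gclm passed it under the other scalings. Cells with at least 1% of thinned UMIs from cycle genes were 43.6% of Pf4-high cells and 3.96% of Hlf-high cells. Without them 4 of 4 higher and 6 of 7 lower members were called again, Gstt1 being the one that was not. Gsto1 was then called higher as well. Of 10434 genes, 1319 were higher and 2911 lower without such cells.

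Dntt-positive cells of ST-HSC had few called members against Hlf-high cells of that library, where few of all genes were called either. Of 33 members tested 0 were higher, against 3.28% of 10467 genes, and 4 were lower, against 7.98%, with a median log2 ratio of -0.13 beside -0.07 for all genes. Mgst1 was at 15.8 CPM (13.5 to 18.3) in Dntt-positive cells and 31.9 CPM (30.3 to 33.5) in Hlf-high cells, 2.02-fold lower (1.73 to 2.37), and Gstm1 at 39.7 CPM in Dntt-positive cells and 67.9 CPM in Hlf-high cells, 1.71-fold lower (1.55 to 1.89). Gclm (63.2 CPM in Dntt-positive cells, 99.2 CPM in Hlf-high cells) and Gstm5 (18.0 and 27.3 CPM) were lower by 1.57-fold and 1.52-fold, and neither passed 1.5-fold under TMM or the median of ratios. Hmox1, Nqo1 and Gstt1 were under the expression limit here, with 1.69 CPM of Nqo1 (1.02 to 2.64) in Dntt-positive cells and 4.64 CPM (4.06 to 5.28) in Hlf-high cells. By library totals, Mgst1 and Gstm1 were thus lower than in Hlf-high cells in each of the 3 ranges compared at the main edges, with Car1-high and Pf4-high cells sharing the LT-HSC Hlf-high cells as their comparison. The Dntt calls depended on which cells were summed. Cells with at least 1% of thinned UMIs from cycle genes were 39.1% of Dntt-positive cells and 24.5% of Hlf-high cells, and 20 of 52 G2/M phase genes were higher in Dntt-positive cells. Without such cells Gstm1 was not called and the other 3 were, beside 860 of 10473 genes lower. When cells were kept in every range they met, 0 of the 4 were called, and the lower member was Hmox1, beside 415 of 10498 genes lower.

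By library totals 9 members had no call in any of the 5 comparisons at the main edges, and their levels are given over the 5 ranges with at least 50 cells. Sod1, the cytosolic superoxide dismutase, lay between 95.4 CPM in Dntt-positive ST-HSC cells and 149 CPM in Pf4-high LT-HSC cells, with 114 CPM in Hlf-high ST-HSC cells and 106 CPM in Hlf-high LT-HSC cells. Prdx4, the peroxiredoxin of the endoplasmic reticulum, was between 61.5 CPM in Dntt-positive ST-HSC cells and 110 CPM in Pf4-high LT-HSC cells. Glutathione synthetase (Gss) stayed between 15.3 CPM in Dntt-positive ST-HSC cells and 24.5 CPM in Car1-high LT-HSC cells, and Glrx3, a glutaredoxin of iron-sulfur cluster handling, between 140 CPM in Hlf-high ST-HSC cells and 242 CPM in Car1-high LT-HSC cells. The others were Gclc, Gsr, Pgd, Keap1 and Hmox1, the last of which was tested in 1 of the 5. Under TMM and under the median of ratios, Sod1, Prdx4, Gss, Glrx3, Gclc, Gsr and Pgd did pass 1.5-fold in Car1-high over Hlf-high LT-HSC cells, as did Sod1 and Pgd in Pf4-high over Hlf-high LT-HSC cells. Prdx4 and Glrx3 passed it in the Pf4-high comparison under the median of ratios alone. Over all kept cells Prdx4 was called lower in ST-HSC under both scalings and without cycling cells.

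**Figure D3:**
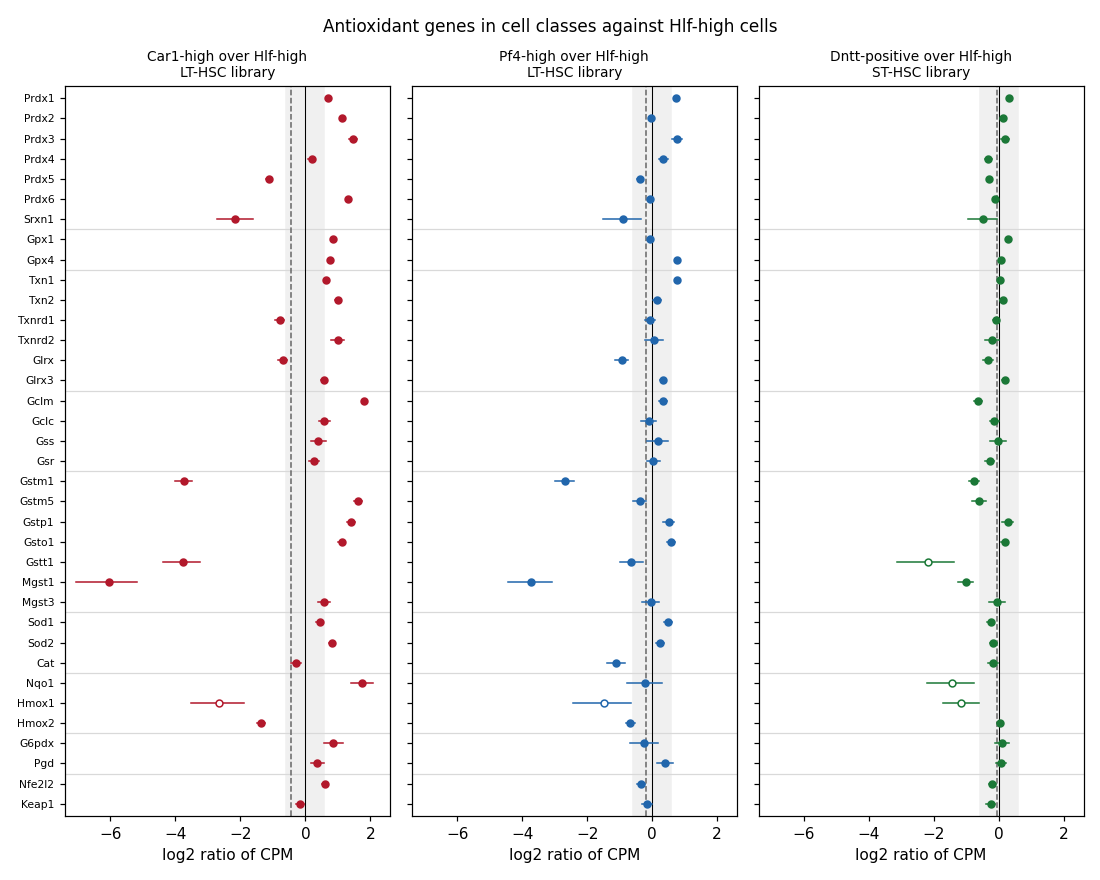
Log2 ratios of CPM to Hlf-high cells of the same library are plotted for the 36 genes in Car1-high (LT-HSC), Pf4-high (LT-HSC) and Dntt-positive (ST-HSC) cells, with 95% counting intervals, the range within 1.5-fold shaded, the median of all genes as a dashed line and genes under the expression limit open. Mgst1 lies at -6.04, -3.73 and -1.01, and Gclm at 1.81, 0.34 and -0.65.

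Per cell, UMIs of the 36 genes together made up a median of 0.411% of all UMIs in ST-HSC and 0.587% in LT-HSC. In ST-HSC, Dntt-positive cells had a median of 0.397% and Hlf-high cells 0.399%, with nearly the same quartiles. In LT-HSC, Car1-high cells had a median of 0.836% (quartiles 0.753% and 0.935%), Pf4-high cells 0.576% (0.514% and 0.628%) and Hlf-high cells 0.497% (0.439% and 0.568%). The lower quartile of Car1-high cells thus lay above the upper quartile of either other range. Of 35 members with enough counts in LT-HSC, 19 (54.3%) were highest in Car1-high cells, 6 (17.1%) in Pf4-high cells and 10 (28.6%) in Hlf-high cells, beside 26.1%, 19.6% and 54.4% of 10182 genes. The 10 highest in Hlf-high cells were Prdx5, Srxn1, Txnrd1, Glrx, Cat, Gstm1, Gstt1, Mgst1, Hmox2 and Keap1.

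**Figure D4:**
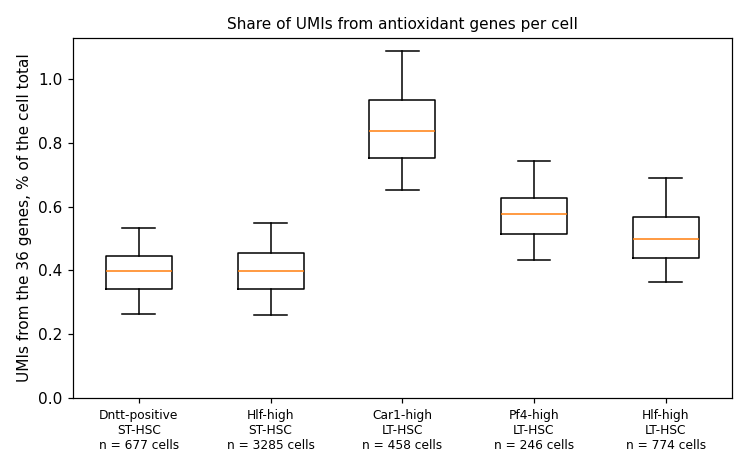
Boxes show the share of a cell's UMIs from the 36 genes, in percent, with the median, the quartiles and the 5th to 95th percentiles over cells of each range and library. The Car1-high LT-HSC box (0.753% to 0.935%) lies above the others.

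Other genes of the same chemistry followed by list. The lists were counted by the same 1.5-fold rule and read against the shares of all genes. For ST-HSC over LT-HSC, 24.9% were higher and 10.3% lower over all kept cells. Within Hlf-high cells these were 15.9% and 13%, and within Car1-high cells 16% and 11.3%. Against Hlf-high cells they were 17.5% and 45.1% for Car1-high, 13.4% and 28.9% for Pf4-high, and 3.28% and 7.98% for Dntt-positive cells. Counts near these shares are not read as results about a list. Of metallothionein, iron storage and haem breakdown genes, 5 of 8 tested were higher and 0 lower in Car1-high over Hlf-high LT-HSC cells (median log2 ratio 2.28). The metal-binding Mt1 was at 781 CPM in Car1-high cells and 19.0 CPM in Hlf-high cells, a ratio of 41.1 (35.9 to 47.2), Mt2 at 202 and 2.58 CPM, and Blvrb, a flavin and biliverdin reductase of red cells, at 921 and 72.9 CPM. In ST-HSC over LT-HSC the same list had 5 lower and 0 higher, both over all kept cells (of 8) and within Hlf-high cells (of 6), where the ferritin light chain Ftl1 was at 724 CPM in ST-HSC and 1198 CPM in LT-HSC. Within Car1-high cells at the looser edges it had 2 higher and 0 lower of 8 instead, Mt2 at 365 CPM in ST-HSC and 174.5 CPM in LT-HSC and the iron exporter Slc40a1 at 51.8 and 21.9 CPM.

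Of the further glutathione and thioredoxin genes, 6 of 26 were higher and 13 lower in Car1-high over Hlf-high LT-HSC cells, beside 17.5% and 45.1% of all genes. The lower ones include Mgst2, a microsomal transferase like Mgst1, at 1.07 CPM in Car1-high cells and 19.3 CPM in Hlf-high cells, 18.0-fold lower (11.5 to 29.7), Gpx7 at 0.306 and 10.8 CPM, and Gsta4, which handles lipid aldehydes, at 3.16 and 27.9 CPM. In Dntt-positive over Hlf-high ST-HSC cells Mgst2 was in the other direction from Mgst1, at 27.8 CPM in Dntt-positive cells and 13.9 CPM in Hlf-high cells, a ratio of 1.997 (1.74 to 2.29), while Gsta4 was at 4.45 and 14.8 CPM, 3.32-fold lower (2.49 to 4.52). That list had 1 higher and 2 lower of 26 in the Dntt comparison, 2 higher and 10 lower of 28 in Pf4-high over Hlf-high cells, and 5 higher and 7 lower of 26 in ST-HSC over LT-HSC. Within Hlf-high cells it had 3 higher and 8 lower of 27 in ST-HSC, and Txnip, which binds and restrains thioredoxin, was at 236 CPM in ST-HSC and 681 CPM in LT-HSC, 2.88-fold lower (2.80 to 2.97).

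The NADPH oxidase list, whose product is superoxide, differed between the libraries in a direction that depended on the cells compared. Over all kept cells 3 of 6 genes were higher in ST-HSC and 0 lower, and within Hlf-high cells 2 of 6 were higher and 0 lower, with median log2 ratios of 0.65 and 0.12. Within Car1-high cells at the looser edges 0 of 4 were higher in ST-HSC and 3 lower (median -0.95), Cyba, a membrane subunit, being at 84.7 CPM in ST-HSC and 195.5 CPM in LT-HSC. Ncf1, a cytosolic oxidase subunit, was at 21.7 CPM in Hlf-high ST-HSC cells and 4.26 CPM in Hlf-high LT-HSC cells, a ratio of 5.09 (3.81 to 6.95), and Ncf4 at 30.3 CPM in ST-HSC and 10.8 CPM in LT-HSC. Dntt-positive cells had 74.0 CPM of Ncf1 against 21.7 CPM in Hlf-high ST-HSC cells, and 2 of 6 of the list were higher there. In Car1-high cells 0 of 5 were higher and 3 lower than in Hlf-high LT-HSC cells, and in Pf4-high cells 0 of 5 were higher and 2 lower.

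Among regulators of NRF2 and its partners, 2 of 14 were higher and 0 lower in ST-HSC over all kept cells, beside 24.9% and 10.3% of all genes. Within Hlf-high cells 3 were higher and 1 lower, beside 15.9% and 13% of all genes. Bach2, which competes for the same kind of element, was at 157 CPM in Hlf-high ST-HSC cells and 88.7 CPM in Hlf-high LT-HSC cells, a ratio of 1.78 (1.66 to 1.90). In Car1-high over Hlf-high LT-HSC cells 3 of 14 were higher and 8 lower, beside 17.5% and 45.1% of all genes. There Bach2 was at 10.8 CPM in Car1-high cells against 88.7 CPM in Hlf-high cells and Bach1 at 19.0 against 50.6 CPM. In Pf4-high cells 1 of 14 was higher and 4 lower, and in Dntt-positive cells 0 of 14 were higher and 1 lower, the lower gene being Nfe2 at 50.9 CPM in Dntt-positive cells and 92.6 CPM in Hlf-high ST-HSC cells.

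NADPH-supplying genes other than G6pdx and Pgd were 7 higher and 4 lower of 15 in Car1-high over Hlf-high LT-HSC cells, with the transaldolase Taldo1 at 533 CPM in Car1-high cells and 163 CPM in Hlf-high cells. The list had 4 higher and 2 lower of 15 in Pf4-high cells, 0 higher and 2 lower of 15 in Dntt-positive cells, 1 higher and 2 lower in ST-HSC over all kept cells, and 3 higher and 2 lower in ST-HSC within Hlf-high cells. Of sulfoxide reductases and selenoproteins, 3 of 20 were higher and 6 lower in ST-HSC within Hlf-high cells. Selenom, a selenoprotein of the endoplasmic reticulum, was at 11 CPM in ST-HSC and 69.7 CPM in LT-HSC, 6.34-fold lower (5.67 to 7.08), and Msrb3, a methionine sulfoxide reductase, at 20.8 and 5.51 CPM in that order, a ratio of 3.78 (2.92 to 4.96). The list had 2 higher and 5 lower of 20 over all kept cells, 3 higher and 6 lower of 19 in Car1-high cells, 1 higher and 3 lower of 19 in Pf4-high cells, and 1 higher and 1 lower of 20 in Dntt-positive cells. Of sestrins, Foxo factors and related genes, 4 of 8 were higher in ST-HSC over all kept cells and 1 of 10 within Hlf-high cells, where Foxo3, which is needed for antioxidant defence in HSCs, was at 160 CPM in ST-HSC and 76.4 CPM in LT-HSC, a ratio of 2.10 (1.95 to 2.25). In Car1-high over Hlf-high LT-HSC cells that list had 2 higher and 3 lower of 8, with Sesn3 at 4.79 CPM in Car1-high cells and 67.3 CPM in Hlf-high cells, in Pf4-high cells 0 higher and 4 lower of 8, and in Dntt-positive cells 0 higher and 2 lower of 10. Of all genes, 17.5% were higher and 45.1% lower in Car1-high over Hlf-high LT-HSC cells.

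Within Car1-high cells at the looser edges, ST-HSC over LT-HSC gave 2 higher and 2 lower of 19 further glutathione and thioredoxin genes, 1 higher and 3 lower of 14 regulators, 3 higher and 2 lower of 13 NADPH-supplying genes, 0 higher and 5 lower of 17 sulfoxide reductases and selenoproteins, and 2 higher and 1 lower of 8 sestrins, Foxo factors and related genes.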

How the data were processed

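For each library the authors deposited raw UMI counts per gene and barcode, without normalization. Cell Ranger was used on mm10, in version 7.2 per the submitters' processing notes and 7.1.0 per the file headers. Whether introns were counted and the strand setting are not given in the sources used here. Of the 36 genes, all were found in GENCODE M21, and Txnrd1 and Hmox2 overlap another counted gene on the same strand.

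Cells with at least 1000 genes and under 10% mitochondrial UMIs were kept. UMIs were summed over cells and divided by the total to give CPM, so a gene's level also depends on what the other genes do. With 1 library per group no p-value was computed. Intervals (95%) are exact conditional binomial for ratios and exact Poisson for CPM, a count of 0 allows up to 3 counts, and both cover counting error only. Genes needed a mean of 5 CPM over both sides, by library totals under every scaling. A gene under 5 CPM on 1 side could pass only through the other side. By library totals it could then be called only as higher on that other side. Higher means a ratio of at least 1.5 and lower 0.667 or less. Ranges needed 50 cells, and the edges are choices of this work. Doublets were not removed, since Scrublet in scanpy 1.11.5 marked 6 LT-HSC cells (0.220%) and 0 ST-HSC cells, which was taken as failed. Named were all 36 genes, the genes of the sort and of the ranges, and up to 4 genes per list with the largest absolute log2 ratio, of which some are printed. The genes and lists were chosen with earlier results of these data known. Alternatives were TMM (edgeR 4.0.16), median of ratios, a mean over cells, no expression limit, 2-fold calls, other range edges, cells kept in each range they meet, every barcode, and leaving out likely doublets or cycling cells. The interval and the calls were tested on simulated Poisson counts, in which every true change was larger than 1.5-fold. Such counts hold counting error alone, so that test says nothing of spread between cells or libraries, or of calls near the limit.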

Additional observations from a re-analysis of the deposited data

Results flagged for a closer look

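Mgst3, a microsomal glutathione transferase, differed in direction between the ranges when ST-HSC was set over LT-HSC at the looser edges. The log2 ratio was -0.79 within Hlf-high cells and 0.70 within Car1-high cells, where the levels were 65.4 CPM in ST-HSC and 40.4 CPM in LT-HSC. With 1 library per group the difference was not tested.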

How the results depend on the processing

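No paired analysis was possible because the labels give 1 library per group and no shared replicate numbers. Of 569 values of called genes under the alternatives, 568 kept their direction and 521 stayed past the fold. The exception was Glrx in Car1-high over Hlf-high LT-HSC cells, whose log2 ratio was 0.0389 under the median of ratios, where scaling to another total moves every gene alike. Dropping the expression limit or asking for 2-fold changes no gene's ratio, so direction could not move under those settings. Counts of called members moved by more than 1.5 times as follows. With 2-fold calls, ST-HSC over LT-HSC gave 1 higher and 6 lower over all kept cells and 0 higher and 3 lower in Hlf-high cells, Car1-high cells gave 9 higher, Pf4-high cells 0 higher and 3 lower, and Dntt-positive cells 1 lower. At 2-fold, all genes were 1126 higher and 300 lower of 10412 over all kept cells, and 674 and 496 of 10734 in Hlf-high cells. They were 972 higher of 10265 in Car1-high, 633 higher and 1677 lower of 10467 in Pf4-high, and 334 lower of 10467 in Dntt-positive cells. Without Car1-high and Pf4-high cells 7 members were lower over all kept cells. Under TMM and the median of ratios, Hlf-high cells gave 2 and 2 higher, Car1-high cells 5 and 5 lower, Pf4-high cells 9 and 11 higher, and Dntt-positive cells 2 and 2 lower. Of all genes, 2040 and 2048 of 10734 were then higher in Hlf-high cells, and 2710 and 2536 of 10265 lower in Car1-high cells. In Pf4-high cells 2276 and 2417 of 10467 were higher, and in Dntt-positive cells 718 and 702 of 10467 were lower. Stricter edges gave 2 higher in Hlf-high cells, beside 1837 of 10794 genes. For Dntt-positive cells, no expression limit gave 7 of 36 members lower, beside 3021 of 17727 genes. Keeping cells in every range they meet gave 1 of 34 members lower, beside 415 of 10498 genes. That member was Hmox1, which was under the expression limit before, and 0 of the 4 lower members were called.

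The planned comparisons with Car1-high ST-HSC cells could not be made at the main edge, where 42 cells are under the minimum of 50, and were made at the looser edge alone. They were run under none of the other alternatives. Leaving out a replicate is not possible with 1 library per group, so no value here carries a replicate error. Leaving out the highest doublet scores at the expected rate (384 ST-HSC and 63 LT-HSC cells) and using every deposited barcode changed no count of called members by over 1.5 times. Genes near the expression limit, such as Hmox1, Srxn1 and Nqo1, rest on few UMIs in the smaller ranges.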
